A study of Mus musculus with 27 samples.

Results

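Polycomb group proteins keep genes silent through changes to histones, and 9 genes of their complexes were followed through development of the mouse retina. The 9 genes were Ezh2, Ezh1, Eed, Suz12, Cbx2, Cbx7, Cbx8, Bmi1 and Rnf2. They were found by symbol among the 38168 annotated features of the deposited data, and for Eed, the gene of the 9 listed under more than one entry, the entry with more reads was taken. All 9 genes passed the filter on low values, which kept 31760 features. RNA-seq was done on whole retinas of wild type mice of the inbred strain C57BL/6J, in 27 libraries at 7 ages. There were 3 libraries each at embryonic day 14 (E14) and E17, 4 at postnatal day 1 (P1), 3 at P6, 4 at P15, another 4 at P28, and 6 at P60. All mice were untreated and lived in a light and dark cycle, and tissue was taken in the light phase. By the study's methods, embryonic and P1 libraries were pools of mixed sexes and later libraries were from males. By the same methods, 4 of the 6 libraries at P60 came from single mice and the others were pools of 3 mice. The labels do not say which P60 libraries were which. Sex changes between P1 and P6 in this design, so sex and age cannot be told apart across that step. The values are CPM, the reads of a gene scaled to a common library total.

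Polycomb repressive complex 2 (PRC2) adds methyl groups to a lysine in the tail of histone H3. Its catalytic subunit is either Ezh2 or its paralog Ezh1, and Eed and Suz12 are core subunits needed for activity. Polycomb repressive complex 1 (PRC1) attaches ubiquitin to histone H2A through Rnf2 (also called Ring1b) or Ring1, each paired with a PCGF protein such as Bmi1 (Pcgf4). The canonical form of PRC1 also holds a CBX protein such as Cbx2, Cbx6, Cbx7 or Cbx8, whose chromodomain binds the histone mark made by PRC2. Ezh2 is known as the form that prevails in dividing cells and Ezh1 as the form that prevails in cells that have stopped dividing. The retina over these ages passes from a tissue of dividing progenitors and the first neurons to postmitotic neurons and glia.

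The promoters of the PRC2 genes are shown because Ezh2 and Ezh1 moved in opposite directions in the values below. RefSeq promoter windows in build GRCm38.p6, 250 bases before to 50 after the start site, were at hand for 8 of the 9 genes, all but Cbx2. Each window was searched on both strands for E2F letters (TTTCCCGC, TTTCGCGC, TTTGCCGC or TTTGGCGC), E2F being a family of cell cycle transcription factors, and for CCAAT, the letters bound by the factor NF-Y. The E2F letters occur in 2.32% and CCAAT in 37.9% of 27025 promoter windows of this length. The motifs do not overlap each other. The windows of Ezh2 and Suz12 each held 1 match to the E2F letters, in capitals here, and those of Ezh1, Eed, Cbx7, Cbx8, Bmi1 and Rnf2 held none. The Ezh2 match starts at position 3 counted from the start site, and the Suz12 match at position -219. With the flanking bases printed here they lie at chr6:47595009-47595038 (minus strand) and chr11:79992876-79992905 (plus strand).
Ezh2 E2F match: gggttgctgcgTTTGGCGCtcggtccggtc
Suz12 E2F match: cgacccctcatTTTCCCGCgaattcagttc
The stretch of the Ezh2 promoter from -153 to -29 (chr6:47595059-47595183, minus strand) lies outside annotated exons and holds 2 of the 3 CCAAT matches of its window, in capitals, 1 of them reading ATTGG because it is on the other strand. The 150 bases before the Ezh1 start site (chr11:101226464-101226613, minus strand) hold neither motif. CCAAT also occurred in the windows of Cbx8 (2 matches), Eed, Suz12 and Cbx7 (1 each). The windows of Ezh1, Bmi1 and Rnf2 held no CCAAT, so these letters do not separate rising from falling genes.
Ezh2 upstream: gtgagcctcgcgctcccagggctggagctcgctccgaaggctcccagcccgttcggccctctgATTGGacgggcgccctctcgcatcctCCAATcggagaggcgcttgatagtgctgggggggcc
Ezh1 upstream: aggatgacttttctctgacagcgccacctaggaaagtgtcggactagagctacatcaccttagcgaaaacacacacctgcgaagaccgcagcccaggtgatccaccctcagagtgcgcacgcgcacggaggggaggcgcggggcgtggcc
These matches describe letters only, and binding was not measured.

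Libraries held between 7076646 and 11330762 recovered reads (median 7968785), so 1 read was worth 0.0882 to 0.141 CPM, and every one of the 9 genes had at least 19 reads in every library. Libraries of 1 age correlated with each other over genes at an r of at least 0.977 at every age except P60, where the lowest r was 0.940. Each pair of libraries of 1 age differed by more than sampling noise. Markers of the labelled tissue were present. The summed level of 10 rod genes ran from 29.96 to 39.7 CPM in the embryonic libraries and from 20340 to 34787 CPM in the mature ones. The sum of 6 lens genes was 2.26 to 10.99 CPM and that of 5 blood genes 12.5 to 43.3 CPM over the embryonic and mature libraries. The sum of the blood genes was 10.7 to 15.5 CPM at P1 and 39.6 to 50.3 CPM at P6. The sum of 6 genes of the retinal pigment epithelium was higher in every mature library, at 10.9 to 49.4 CPM, than in the embryonic ones, at 2.65 to 7.10 CPM. Of the 5 of these genes that were tested, 3 were called higher in the comparison below, beside 35% of all features. The summed level of 14 genes of proliferating progenitors was 4358 to 4981 CPM in the embryonic libraries, 3830 to 4220 CPM at P1, 547 to 601 CPM at P6 and 190 to 247 CPM in the mature libraries. All 14 were called lower in mature retina in the comparison below, beside 40.4% of all features. In whole tissue, fewer cells of a type and less RNA per cell cannot be told apart, and the part of these shifts in cell makeup in the results below was not tested.

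Embryonic retina (the mean of E14 and E17) was compared with mature retina (the mean of P15, P28 and P60) by limma on log2(CPM + 1) over all features tested, and p-values were adjusted by the Benjamini-Hochberg method. Of the 9 genes, 8 passed an adjusted p of 0.05, 3 higher in mature retina (Cbx7, Ezh1 and Bmi1) and 5 lower (Cbx2, Ezh2, Rnf2, Suz12 and Eed). Over all features 75.4% passed, 35% higher and 40.4% lower, so a call in this comparison is common. With a fold change of at least 2 also required, Cbx7 and Ezh1 were higher and Cbx2, Ezh2 and Rnf2 lower, against 14.9% of all features higher and 16.1% lower. Over the 7 ages, 8 of the 9 genes varied (limma F test), beside 83% of all features. Eed passed this test narrowly (adjusted p = 0.048, limma F test). The count ran from 7 to 8 over the alternative settings and over the libraries left out. The median log2 fold change was -0.27 over the 9 genes and -0.06 over all features. The labels do not say whether the libraries of an age came from separate litters, and the p-values measure the spread between these libraries.

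**Figure D1:**
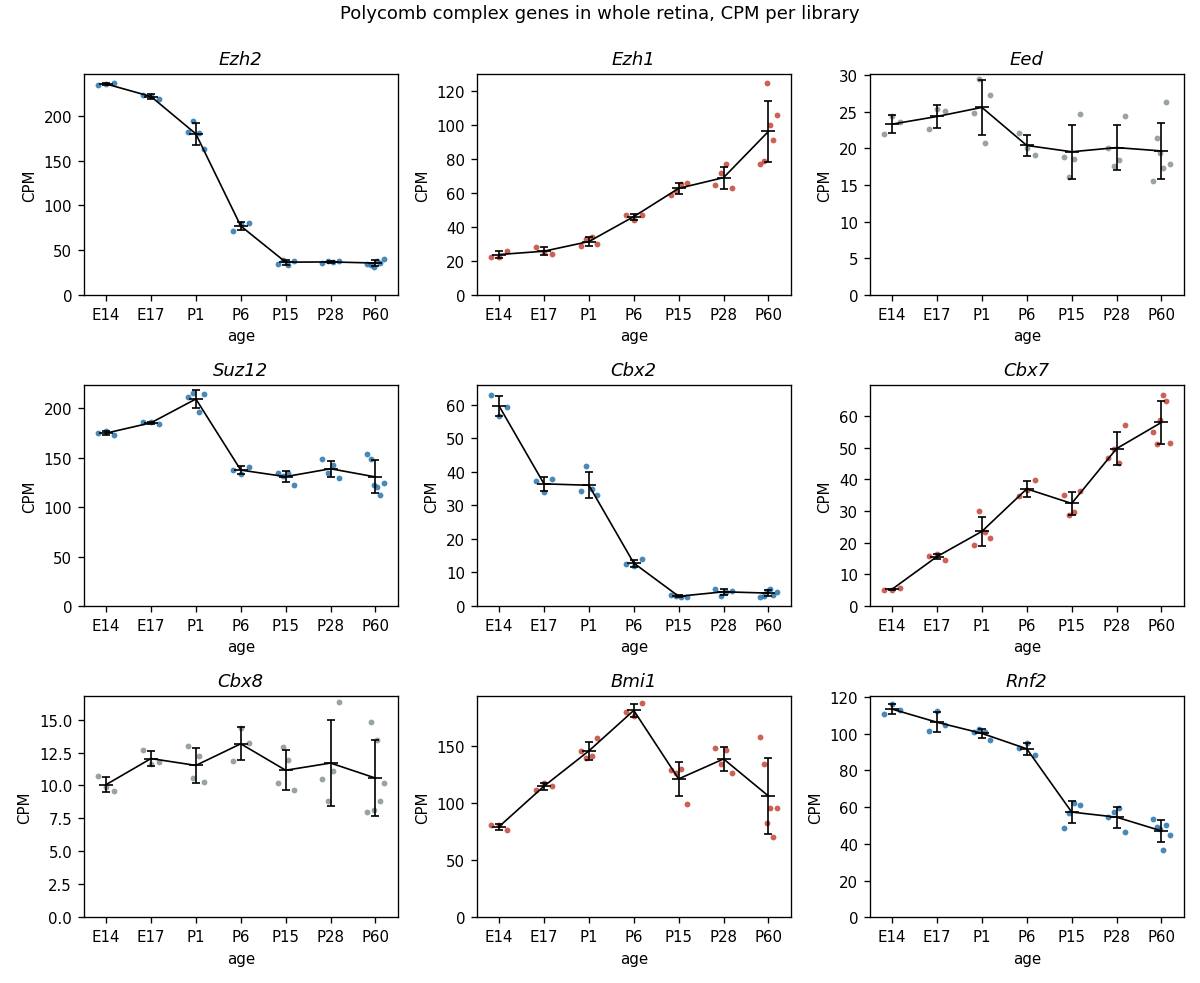
CPM (vertical axes, linear, from 0) of the 9 genes in each of the 27 libraries (points) at 7 ages, with the mean ± SD of each age in black and points in red for genes higher in mature retina by limma, in blue for genes lower, and in grey for Cbx8, which was not called, and Eed, whose call was lost under another scaling. Ezh2 and Cbx2 drop between P1 and P15, Ezh1 and Cbx7 have their highest means at P60, and the 6 libraries at P60 have their largest SD in CPM for Bmi1 and Ezh1.

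Ezh2, the catalytic subunit of PRC2 known from dividing cells, was 6.16-fold lower in mature than in embryonic retina. It lies at chr6:47530139-47595341 (minus strand) of GRCm38. The E14 libraries gave 235, 236 and 237 CPM and the E17 libraries 224, 223 and 219 CPM. At P1 the values were 182, 194, 181 and 164 CPM, and at P6 they were 71.9, 78.7 and 80.4 CPM. The drop thus ran mainly from P1 to P15. The P15 libraries gave 35.1, 39.5, 33.7 and 38.1 CPM, the P28 libraries 35.4, 38.1, 36.4 and 37.5 CPM, and the 6 P60 libraries a lowest value of 31.5, a median of 35.4 and a highest of 40.3 CPM. Embryonic and mature libraries did not overlap, each age from E14 to P6 stood apart from the next, and P15, P28 and P60 overlapped one another. The log2 fold change between mature and embryonic retina was -2.62 ± 0.05 (SE, adjusted p = 9.9e-29, limma). Of the variance of log2(CPM + 1) of Ezh2, 99.6% lay between ages. The exons of Ezh2 overlap an annotated gene on the other strand, Gm26625, over 174 bases, and whether counting used the strand is not given in the sources used here.

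Ezh1, the other catalytic subunit, rose. It lies at chr11:101191115-101226463 (minus strand), and its exons overlap no other annotated gene. The E14 libraries gave 22.6, 22.6 and 26.1 CPM, the E17 libraries 28.3, 25.1 and 23.8 CPM, and the P1 libraries 28.7, 32.9, 34.3 and 29.8 CPM. The mean was higher at each later age. The P6 libraries gave 47.1, 44.1 and 47.2 CPM, the P15 libraries 58.9, 61.2, 65.1 and 65.8 CPM, and the P28 libraries 64.8, 71.6, 77.1 and 62.9 CPM. At P60 replicates 1 to 6 gave 77.1, 78.7, 125, 99.9, 91.2 and 106 CPM (median 95.5). All mature libraries were above all embryonic ones, but E14 overlapped E17, P15 overlapped P28, and P28 and P60 met at 77.1 CPM. Mature retina was 2.93-fold higher, a log2 fold change of 1.55 ± 0.08 (SE, adjusted p = 4.8e-18, limma), and the log2 fold change was 1.38 with the P60 libraries left out of the mature mean.

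The ratio of Ezh2 to Ezh1 within a library, which no scaling of the library can change apart from the pseudocount, turned over between P6 and P15. The reads of Ezh2 over those of Ezh1 gave a mean ratio of 9.97 at E14, 8.66 at E17, 5.75 at P1 and 1.67 at P6. Thereafter Ezh1 had the more reads, with ratios of 0.584 at P15, 0.537 at P28 and 0.380 at P60. On the log2 scale the ratio ran from 2.94 to 3.33 in the 6 embryonic libraries and from -1.96 to -0.62 in the 14 mature ones. The groups did not overlap, and the means differed by -4.23 (exact permutation test over libraries, two-sided, p = 2.6e-05, the smallest p that 38760 splits allow, and 2.6e-05 adjusted over 4 ratios). As each gene alone separated the groups, in opposite directions, the ratio was bound to separate them and its p adds no support. Per kilobase of exon, Ezh2 stood at 35.3 ± 0.144 and Ezh1 at 3.19 ± 0.273 CPM per kb at E14 (SD, n = 3), and at P60 they stood at 5.33 ± 0.455 and 12.9 ± 2.43 CPM per kb (SD, n = 6). Ezh2 thus made up 91.7% of the summed level of both genes per kilobase at E14, 65.0% at P6, 39.4% at P15 and 29.6% at P60. The sum itself dropped from 38.5 CPM per kb at E14 to 13.9 at P15 and was 18.3 at P60. Lengths were those of all annotated exons merged, and the ratio per kilobase was 11.1 at E14 and 0.424 at P60 by this measure. With the longest transcript of each gene as its length it was 15.1 and 0.574.

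**Figure D2:**
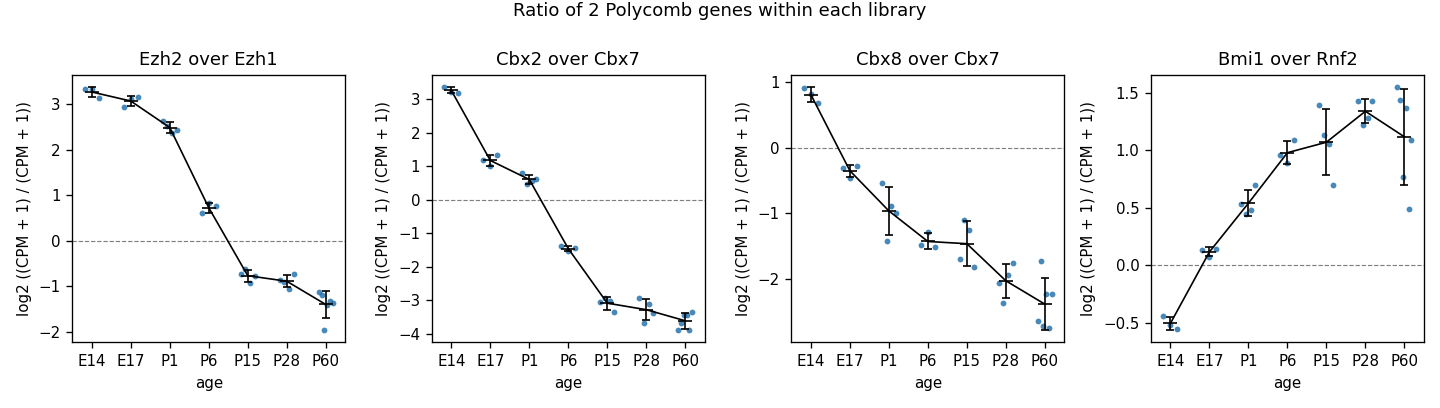
Log2 of the ratio of one gene to another, each as CPM + 1, within each of the 27 libraries (points) at 7 ages, with mean ± SD in black and a dashed line at equal values. Ezh2 over Ezh1 and Cbx2 over Cbx7 cross from above to below the line, the first between P6 and P15 and the second between P1 and P6, and Bmi1 over Rnf2 crosses upward between E14 and E17.

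Suz12 and Eed, the noncatalytic core of PRC2, were also lower in mature retina, by less than 2-fold. Suz12, at chr11:79993106-80034123 (plus strand), gave 175, 177 and 173 CPM at E14, 186, 186 and 184 CPM at E17, and 211, 216, 196 and 214 CPM at P1. These were its highest values. The P6 libraries gave 138, 134 and 141 CPM, and the P15 libraries 135, 132, 135 and 122 CPM. At P28 the libraries gave 148, 135, 142 and 129.7 CPM. At P60 replicates 1 to 6 gave 154, 149, 123, 121, 113 and 125 CPM (median 124). Every mature library was below every embryonic one, and the ages from P6 on overlapped. The log2 fold change was -0.43 ± 0.05 (SE, adjusted p = 1.0e-08, limma). Its exons overlap Gm26563 on the other strand over 178 bases.

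Eed, which binds the methylated histone tail and stimulates the complex, did not keep its call under every setting. It had 22.0, 24.4 and 23.6 CPM at E14 and 22.6, 25.3 and 25.2 CPM at E17, with P1 libraries from 20.7 to 29.5 and P6 libraries from 19.2 to 22.0 CPM. Mature libraries ran from 15.6 to 26.4 CPM, so the groups overlapped. The log2 fold change was -0.27 ± 0.10 (SE, adjusted p = 0.013, limma), but it was -0.20 with an adjusted p of 0.086 under median-of-ratios scaling, and -0.14 with an adjusted p of 0.21 when the reads of both entries of the symbol were summed, so the call rests on these choices. The lesser Eed entry reached at most 6.03 CPM. Exons of Eed overlap E230029C05Rik on the other strand over 261 bases.

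Among the CBX genes of PRC1, Cbx2 fell and Cbx7 rose. Cbx2, at chr11:119022962-119031270 (plus strand), gave 62.8, 56.6 and 59.3 CPM at E14, 37.3, 34.0 and 37.9 CPM at E17, and 34.2, 41.7, 34.9 and 33.0 CPM at P1. It then dropped to 12.6, 11.9 and 13.9 CPM at P6. The P15 libraries gave 3.35, 2.90, 2.80 and 2.61 CPM, the P28 libraries 5.20, 2.95, 4.33 and 4.53 CPM, and P60 had a lowest of 2.75, a median of 3.80 and a highest of 5.19 CPM. E17 overlapped P1, and P15, P28 and P60 overlapped one another, but all 14 mature libraries were below all 6 embryonic ones. Mature retina was 10.4-fold lower, a log2 fold change of -3.37 ± 0.10 (SE, adjusted p = 9.7e-24, limma). The mature values rest on 19 to 47 reads per library, and the log2 fold change was -3.67 with a pseudocount of 0.1.

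Cbx7 was the gene with the largest rise of the 9. It lies at chr15:79915807-79971119 (minus strand). The E14 libraries gave 5.20, 5.17 and 5.58 CPM, the E17 libraries 15.9, 16.3 and 14.6 CPM, and the P1 libraries 19.4, 30.001, 23.5 and 21.4 CPM. The first step was the steepest. The P6 libraries gave 34.8, 36.6 and 39.7 CPM, the P15 libraries 34.9, 28.7, 29.7 and 36.3 CPM, and the P28 libraries 46.8, 49.6, 45.3 and 57.2 CPM, while P60 had a lowest of 51.3, a median of 56.8 and a highest of 66.7 CPM. P15 overlapped both P1 and P6, P28 overlapped P60, and all mature libraries were above all embryonic ones. The log2 fold change was 2.17 ± 0.08 (SE, adjusted p = 2.0e-21, limma), or 4.51-fold. The exons of Cbx7 overlap those of Apobec3, an antiviral cytidine deaminase gene on the other strand, over 100 bases, and the reads these genes may share were not separated.

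Cbx8 was the gene of the 9 that did not pass either test. It lies at chr11:119036305-119040969 (minus strand), next to Cbx2. Its libraries ran from 9.58 to 12.7 CPM in the embryonic retina, from 10.3 to 14.4 at P1 and P6 and from 7.999 to 16.3 CPM in mature retina. The log2 fold change was -0.01 with a 95% interval from -0.25 to 0.23 (adjusted p = 0.94, limma), and the F test over ages gave an adjusted p of 0.53. Changes within this interval could not be told from the spread between libraries. The highest and lowest age means of Cbx8 differed 1.31-fold.

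Within libraries, Cbx2 over Cbx7 turned over between P1 and P6. The mean ratio of reads was 11.2 at E14, 2.34 at E17, 1.55 at P1, 0.346 at P6 and 0.0665 at P60. On the log2 scale the means differed by -5.59 between mature and embryonic libraries, and Cbx8 over Cbx7 differed by -2.24 (exact permutation tests, two-sided, each p = 2.6e-05, the smallest possible, and 2.6e-05 adjusted over 4 ratios). Neither ratio overlapped between the groups. For Cbx2 over Cbx7 the separation followed from that of each gene alone, in opposite directions, so its p adds no support. For Cbx8 over Cbx7, Cbx7 alone separated the groups (log2 fold change 2.17) and Cbx8 was not called (-0.01). The p of that ratio is thus no support separate from the rise of Cbx7. Per kilobase of exon, Cbx2 held 57.1% of the summed level of Cbx2, Cbx6, Cbx7 and Cbx8 at E14, 38.3% at E17, 36.9% at P1, 15.7% at P6 and 3.98% at P60. Cbx7 held 3.35% at E14 and 39.4% at P60. Cbx6 held 28.4% at E14, reached 57.99% at P15 and held 43.8% at P60. The summed level of these 4 genes stayed between 19.1 and 24.5 CPM per kb over the age means. Exons of Cbx6 overlap Npcd on the same strand.

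**Figure D3:**
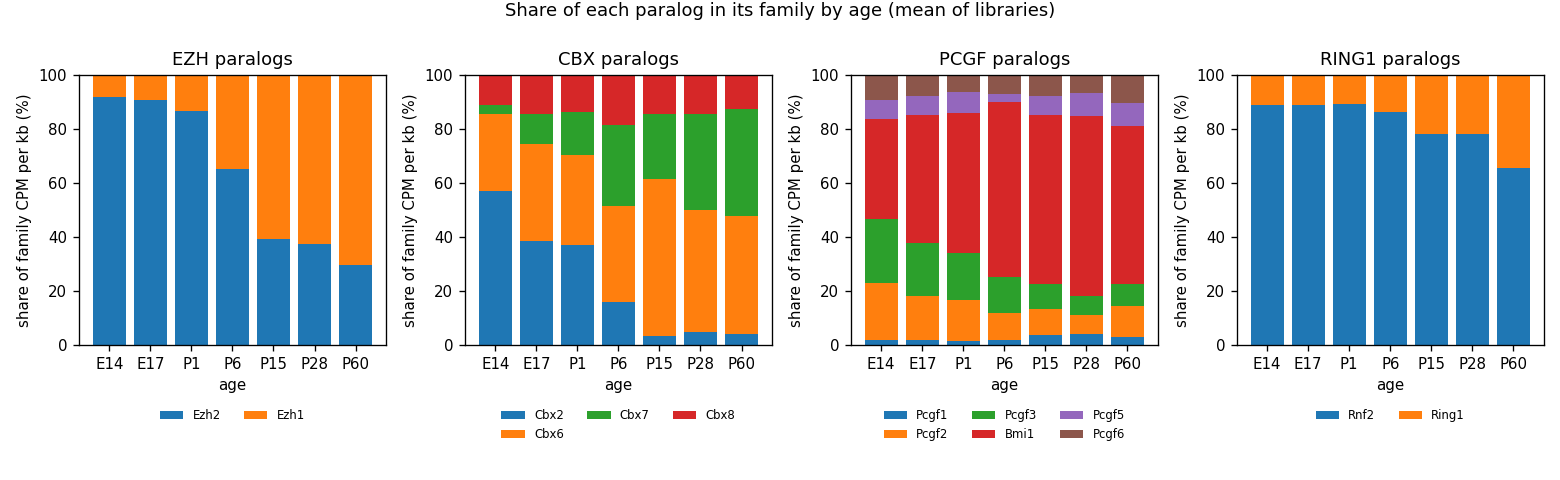
Share (%) of each paralog in the summed CPM per kb of exon of its family at 7 ages, as the mean over libraries, for EZH, CBX (Cbx2, Cbx6, Cbx7 and Cbx8), PCGF and RING1 genes. Ezh2 shrinks from 91.7% to 29.6% and Cbx2 from 57.1% to 3.98% between E14 and P60, while Ezh1, Cbx7 and Ring1 take larger shares.

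Rnf2, the ubiquitin ligase of PRC1, was lower in mature retina. It lies at chr1:151458004-151500955 (minus strand). It gave 111, 116 and 113 CPM at E14, 102, 112 and 105 CPM at E17, and 101, 102, 101 and 96.5 CPM at P1. The P6 libraries gave 92.1, 94.8 and 88.1 CPM, the P15 libraries 48.9, 56.9, 62.3 and 61.0 CPM, and the P28 libraries 54.6, 57.3, 59.7 and 46.4 CPM, with P60 between 36.6 and 53.5 CPM (median 48.6). Mature and embryonic libraries did not overlap, and P15, P28 and P60 overlapped. Mature retina was 2.07-fold lower, a log2 fold change of -1.05 ± 0.07 (SE, adjusted p = 1.7e-15, limma). Rnf2 held 89.0% of the level per kilobase of Rnf2 and Ring1 together at E14 and 65.5% at P60. Exons of Rnf2 overlap Trmt1l on the other strand over 158 bases.

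Bmi1 peaked at P6, an age outside the comparison of mature with embryonic retina. It lies at chr2:18677018-18686629 (plus strand), and its exons overlap no other annotated gene. It gave 81.3, 80.8 and 76.5 CPM at E14, 112, 118 and 116 CPM at E17, 146, 139.5, 141 and 157 CPM at P1, and 179.7, 177 and 188 CPM at P6. These 4 ages did not overlap. The P15 libraries gave 129.6, 126, 130.3 and 99.5 CPM, and the P28 libraries 148, 135, 146 and 126 CPM. At P60 the 6 libraries, replicates 1 to 6, gave 158, 135, 82.3, 96.0, 70.6 and 96.3 CPM. Their coefficient of variation was 31.4%, the highest of the 7 ages, and they reached from below the E14 range to above the P28 range. The log2 fold change between mature and embryonic retina was 0.32 ± 0.10 (SE, adjusted p = 0.0049, limma), and the groups overlapped. Bmi1 over Rnf2 within libraries rose by 1.36 on the log2 scale (exact permutation test, two-sided, p = 2.6e-05, the smallest possible, and 2.6e-05 adjusted over 4 ratios), from -0.55 to 0.14 in embryonic and from 0.49 to 1.55 in mature libraries. Rnf2 alone separated the groups, with a log2 fold change of -1.05 beside 0.32 for Bmi1. The p of this ratio is thus no separate support for a rise of Bmi1. Per kilobase, Bmi1 held 37.2% of the summed level of 6 PCGF genes at E14, 66.8% at P28 and 58.5% at P60.

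Counted over the 9 genes, 6 had mature and embryonic libraries that did not overlap, namely Ezh2, Ezh1, Suz12, Cbx2, Cbx7 and Rnf2, beside 40.4% of all features.

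Among the steps between neighboring ages, those from P1 to P6 and from P6 to P15 had the most calls, both over the 9 genes and over all features. From P1 to P6, 5 of the 9 genes changed (limma), beside 38.3% of all features. Ezh2 fell by 1.21 (adjusted p = 9.1e-14), Cbx2 by 1.42 (adjusted p = 1.1e-08) and Suz12 by 0.60 (adjusted p = 4.0e-07) on the log2 scale, and Cbx7 rose by 0.64 (adjusted p = 1.0e-04) and Ezh1 by 0.54 (adjusted p = 4.9e-04). From P6 to P15, 5 of 9 changed, beside 33.4% of features. Cbx2 fell by 1.82 (adjusted p = 1.3e-10), Ezh2 by 1.05 (adjusted p = 7.0e-12), Rnf2 by 0.68 (adjusted p = 3.6e-06) and Bmi1 by 0.58 (adjusted p = 0.0038), and Ezh1 rose by 0.44 (adjusted p = 0.0053). Suz12 thus fell at the first of these steps and was -0.07 at the next, while Rnf2 was -0.13 at the first and fell at the next.

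Fewer of the 9 genes passed at the earlier steps. From E14 to E17, 3 of 9 changed, beside 10.6% of features. Cbx7 rose by 1.40 (adjusted p = 2.3e-09, limma), Bmi1 rose by 0.53 (adjusted p = 0.036) and Cbx2 fell by 0.70 (adjusted p = 0.0053), while Ezh2 was at -0.09 and Ezh1 at 0.11. The Bmi1 call was lost when any single E14 or E17 library was left out, with adjusted p from 0.075 to 0.12. From E17 to P1, Cbx7 rose by 0.55 (adjusted p = 0.0035) and Ezh2 fell by 0.30 (adjusted p = 0.014), beside 9.21% of features called. Without E17 replicate 1 or 2 or P1 replicate 4 the adjusted p for Ezh2 was 0.059, 0.056 or 0.065.

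After P15 few steps passed. From P15 to P28 Cbx7 alone changed, by 0.60 (adjusted p = 0.0019, limma), beside 2.72% of features. From P28 to P60 Ezh1 rose by 0.46 (adjusted p = 0.0076) and Bmi1 fell by 0.43 (adjusted p = 0.030), beside 12.9% of features. Of the features called at this last step 37.2% were higher in the deposited scaling and 51.6% under median-of-ratios scaling, and the Bmi1 call was lost in edgeR on the recovered reads (adjusted p = 0.064) and without P28 replicate 1, 2 or 3 or P60 replicate 3, 4, 5 or 6. The Ezh1 call remained in each of these. For Ezh1, P60 replicates 1 and 2 gave 77.1 and 78.7 CPM, near the P28 range of 62.9 to 77.1, and replicates 3 to 6 gave 91.2 to 125 CPM. For Bmi1, replicates 1 and 2 gave 158 and 135 CPM, near the P28 range of 126 to 148, and replicates 3 to 6 gave 70.6 to 96.3 CPM. By the study's methods only P60 had libraries of single mice, so age and pooling cannot be told apart at this step.

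**Figure D4:**
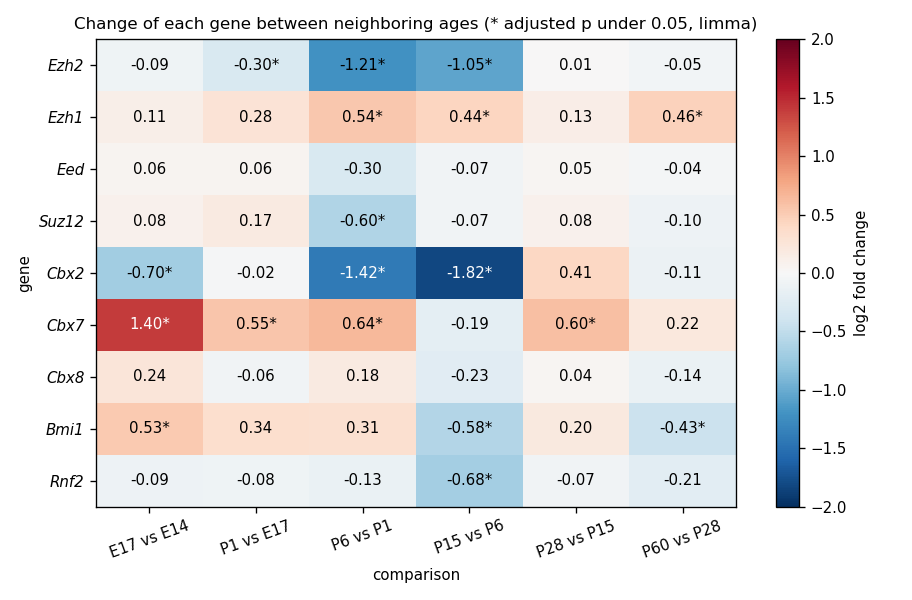
Log2 fold change of the 9 genes (rows) at the 6 steps between neighboring ages (columns), in blue where the later age was lower and in red where it was higher, with a star at an adjusted p under 0.05 (limma). The deepest blue cells are Cbx2 and Ezh2 at P6 against P1 and at P15 against P6, and the deepest red cell is Cbx7 at E17 against E14.

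The other subunits of these complexes were described by lists of known partners. Of 10 PRC2 partners, 8 were lower and 2 higher in mature retina (median log2 fold change -0.93, beside -0.06 for all features, of which 40.4% were lower and 35% higher). The histone chaperones Rbbp4 and Rbbp7, which are core subunits, were among the lower ones at -1.10 and -1.27. Mtf2, a Polycomb-like accessory protein, had the deepest fall at -1.48 (adjusted p = 8.0e-19, limma), from 171 CPM at E14 to 50.5 CPM at P60, and its paralog Phf1 rose by 1.73 (adjusted p = 6.9e-15), from 5.88 CPM at E14 to 32.2 CPM at P60. Lcorl fell by 1.33 (adjusted p = 8.2e-14), with its highest mean of 475 CPM at P1, between 216 CPM at E14 and 83.9 CPM at P60. Jarid2, which helps to recruit PRC2, rose by 0.99 (adjusted p = 5.4e-18), but its highest mean was 337 CPM at P6, between 79.5 CPM at E14 and 174 CPM at P60.

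PRC1 subunits moved in both directions. Of 13 genes, 3 were higher, 6 lower and 4 not called (median -0.14), beside 75.4% of all features called, while with median-of-ratios scaling or edgeR 5 were higher. Phc3, a polyhomeotic subunit, rose by 0.63 (adjusted p = 1.8e-11, limma) and Cbx6 by 0.48 (adjusted p = 5.1e-09). Ring1, the paralog of Rnf2, was higher by 0.37 (adjusted p = 0.0061), a call that rested on P60, since without P60 the log2 fold change was 0.16 (adjusted p = 0.26). The P60 mean of Ring1 was 19.6 ± 4.998 CPM (SD, n = 6) beside 11.8 CPM at P28 and 11.05 CPM at E14. Pcgf3 fell by 1.64 (adjusted p = 6.7e-22), Scml2 by 1.54 (adjusted p = 2.4e-10) and Pcgf2 (Mel18), the closest paralog of Bmi1, by 1.22 (adjusted p = 9.6e-12). Pcgf1 was at 0.38 (adjusted p = 0.058), beside 0.32 for Bmi1, which passed.

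Among 13 subunits of variant PRC1, which lacks CBX proteins, 3 were higher, 6 lower and 4 not called (median -0.07), close to the 75.4% called and the median of -0.06 over all features. Max rose by 0.70 (adjusted p = 8.9e-11, limma) and Yaf2 by 0.37 (adjusted p = 8.7e-07), whereas Bcorl1 fell by 1.60 (adjusted p = 7.9e-16) and Kdm2b, which binds unmethylated CpG DNA, by 1.06 (adjusted p = 3.3e-12). With median-of-ratios scaling or edgeR, 5 were higher instead of 3. Of 12 enzymes and enzyme partners that oppose Polycomb silencing, 5 were higher and 5 lower (median 0.10), beside 35% and 40.4% of all features, and 7 were higher in edgeR. The H3 methyltransferases Kmt2d and Kmt2a rose by 0.90 (adjusted p = 5.8e-10) and 0.51 (adjusted p = 2.0e-08), and Asxl3 and Asxl1, partners of the deubiquitinase Bap1, fell by 3.10 (adjusted p = 3.1e-29) and 1.35 (adjusted p = 3.4e-17). Asxl3 dropped from 229.9 CPM at E14 to 17.04 CPM at P60. Kmt2d varied between 663 and 1240 CPM over the 6 libraries at P60.

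**Figure D5:**
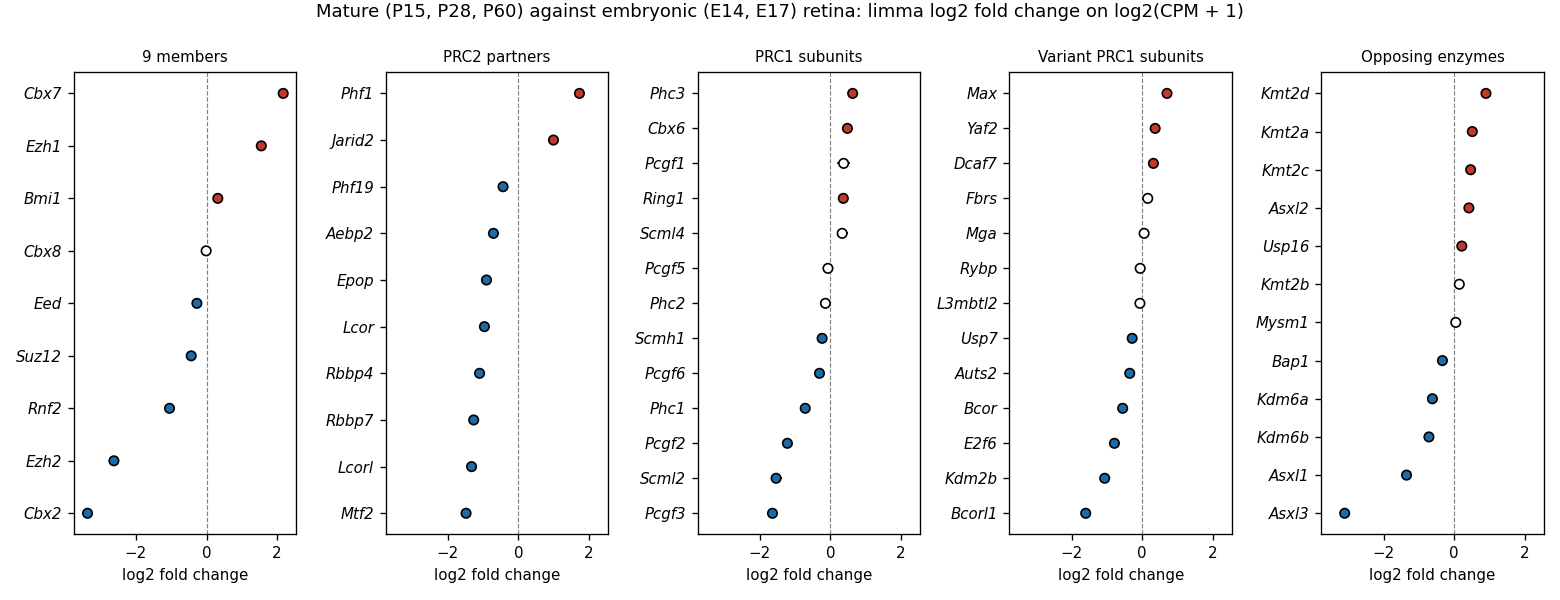
Log2 fold change between mature and embryonic retina (horizontal axes, limma on log2(CPM + 1)) for the 9 genes and 4 lists of partners and of opposing enzymes with their partners, with horizontal bars for the standard error, mostly hidden by the points. Red points were higher and blue points lower at an adjusted p under 0.05, and white points did not pass. Of the PRC2 partners 8 of 10 are blue, while the other lists are mixed.

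The chromobox genes outside Polycomb, which encode HP1 proteins of heterochromatin, all fell in mature retina, Cbx5 by 2.13 (adjusted p = 1.1e-26, limma), Cbx1 by 1.91 (adjusted p = 3.8e-22) and Cbx3 by 1.60 (adjusted p = 5.4e-19) on the log2 scale. Over all features 40.4% were lower, and 16.1% were lower by at least 2-fold. Of the textbook Polycomb targets, Cdkn2b, a cell cycle inhibitor gene, had at most 33 reads in a library and was not called between mature and embryonic retina (log2 fold change -0.28, adjusted p = 0.12), but Cdkn2b rose by 0.98 from E17 to P1 (adjusted p = 0.010, limma) and fell by 1.18 from P1 to P6 (adjusted p = 3.5e-04), with its highest mean of 2.69 CPM at P1, and Cdkn2a had at most 6 reads and was not tested. Genes of the Hox clusters were not analysed here.

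Genes with the course most like that of Ezh2 were sought among 13111 features with a Gene ID and a mean of at least 5 CPM, by Pearson r of log2(CPM + 1) over the 27 libraries. The 5 nearest were Rbbp8 (r = 0.996), a DNA end resection factor, Baz1a (0.996), a chromatin remodeling subunit, Trp53i11 (0.994), and the transcription factors Sox11 (0.994) and Bcl11a (0.993). Such likeness was common for Ezh2, as 1128 features reached an r of 0.95. For Ezh1, 296 features did, led by Cyth1 (0.986), Rnf123 (0.985), Trappc9 (0.983), Snx21 (0.983) and Hexdc (0.980). For Cbx7 only 34 did, led by Apobec3 (0.983), the gene that overlaps it, then Trim25 (0.971), Iqsec3 (0.968), Pou6f1 (0.967) and Ryr3 (0.967). Apobec3 averaged 5.15 CPM at E14 and 34.5 CPM at P60. Among the 9 genes themselves, Ezh2 and Cbx2 had an r of 0.984, Ezh2 and Ezh1 -0.945, and Ezh2 and Bmi1 -0.10. The libraries of one age share that age, so these r values describe the courses and are given without a test.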

How the data were processed

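Total RNA of whole retinas was made into libraries with a SMARTer total RNA kit and sequenced as single-end reads, which the authors aligned to GRCm38 (mm10) with STAR and deposited as CPM per annotated feature. The annotation and the strand setting of the counting are not given in the sources used here. Groups were the ages given by the labels. The 9 members, the lists and the tests were chosen with earlier results of these data known. Each deposited CPM column was divided by its step, the value of a single read, fitted to all but its highest values. This gave whole reads for 100% of the nonzero values in the fit (within 0.1 read). The highest values were rounded without this check. In E14 replicate 1 the step is close to a round decimal number, so reads were also used without it. A feature was kept where 3 or more libraries reached 1 CPM. On log2(CPM + 1), limma 3.58.1 (R 4.3.3, trend option) took age as the one factor over the 27 libraries, and two-sided p-values were adjusted by Benjamini-Hochberg over 31760 features. Fold changes on this scale understate those of low genes. Ratios of genes were tested by exact permutation over libraries. Lengths came from GENCODE exons of GRCm38, promoters from RefSeq. List genes were named by the 2 largest rises and falls called, and by 3 paralogs of members, while Rbbp4, Rbbp7, Pcgf1, Cdkn2b and Cbx3 were added after their values were seen. Epop was matched through its older symbol E130012A19Rik. The scripts were tested on simulated data. Alternatives were a pseudocount of 0.1, no filter, a mean of at least 10 CPM, median-of-ratios scaling, edgeR 4.0.16 with TMM on the recovered reads (with and without E14 replicate 1; 24062 of 31760 features called between mature and embryonic retina), a replicate block, summed entries of a symbol, a mature mean without P60, and each library left out. Applying them to the lists was chosen after seeing the data. Reads are not independent molecules, so depth covers counting error only. Other steps ran in Python 3.11.15 (scipy 1.17.1, numpy 2.4.6, matplotlib 3.10.9, pandas 2.3.3). An item of the list of PRC1 subunits is not reported here.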

Additional observations from a re-analysis of the deposited data

Results flagged for a closer look

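In 52 groups of 4 to 6 libraries (the members' CPM and the 4 ratios, by age), the highest and lowest library were compared with the rest by Dixon's criterion at its 95% level, which chance passes in about 1 group in 20, and 2 stood apart. Bmi1 in P15 replicate 4 was 99.5 CPM, while the other P15 libraries had 126 to 130.3 CPM. The log2 ratio of Ezh2 to Ezh1 in P60 replicate 3 was -1.96, while the other P60 libraries had -1.40 to -1.13. That library had the highest Ezh1 level of the 27, 125 CPM, and an Ezh2 level of 31.5 CPM, the lowest.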

How the results depend on the processing

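No value that passed its test as reported changed sign under any alternative run. Among values that did not pass, 38 settings over 12 results changed sign, Cbx8 between mature and embryonic retina among them. Of the main values and counts, 950 kept their side of the threshold or stayed close to the reported value, 32 moved and 4 lost their call. Of the values for single steps and list genes, 1390 kept their side, 21 lost their call and 5 gained one. Eed lost its call between mature and embryonic retina under median-of-ratios scaling (-0.20), edgeR (-0.17), edgeR without E14 replicate 1 (-0.19) and summed entries of the symbol (-0.14). The number of members higher at E17 than at E14 was 1 instead of 2 in edgeR without E14 replicate 1, and 1 to 1 when any E14 or E17 library was left out. The number lower at P1 than at E17 ranged from 0 to 1 over the libraries left out, with 0 without E17 replicate 1 or 2 or P1 replicate 4. The number lower at P60 than at P28 was 0 instead of 1 in edgeR with or without E14 replicate 1, and ranged from 0 to 2 over the libraries left out. It was 2 without P28 replicate 4 or P60 replicate 1, where Rnf2 joined (adjusted p = 0.045 and 0.033, limma). PRC1 subunits and variant PRC1 subunits higher in mature retina numbered 5 instead of 3 in each list under median-of-ratios scaling, edgeR and edgeR without E14 replicate 1. Of the Ink4 locus, 1 gene was lower instead of 0 without the filter on low values, and 0 to 1 over the libraries left out, with 1 without E17 replicate 3. Ezh2 over Ezh1 per kilobase was 15.1 at E14 and 0.574 at P60 with the longest transcript as length. The causes of these shifts were not tested.

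Same-numbered libraries of different ages did not deviate together (69 pairs, median r -0.0018, from -0.13 to 0.17), so the numbers were not taken as pairs, and 3 of 27 libraries were closest to their own number. With the replicate number as a block, the number of members lower at P60 than at P28 was 0 instead of 1, since Bmi1 gave -0.28 (adjusted p = 0.15, limma), and no other call of the members changed.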
